A study of Rattus norvegicus with 8 samples.

Results

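Hsp90aa1, Hsp90ab1, Hspb1, Cryab and Hspd1, 5 genes of the cytosolic HSP90, small and mitochondrial heat shock protein families, were examined in scalded rat paw skin. They were taken by Ensembl identifier from a list of 5, and all 5 were among the 26404 genes of the count table. The burn group came from Sprague-Dawley rats of 125 to 200 g with 1 hind paw held in 60 °C saline for 2 min, which gives a deep partial-thickness burn. The control group came from the opposite paw, held in room temperature saline. Rats of both groups were under urethane (1.5 g/kg) and kept at a body temperature of 37 °C. Dorsal paw skin was excised where microdialysis probes had been placed, and 4 burn and 4 control libraries were sequenced from poly(A) RNA. The control skin is thus skin of burned animals, not of unburned ones, and how long after the burn it was excised is not stated in what was used here. Whole skin was homogenised, so fewer cells of a type and less RNA per cell cannot be told apart.

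HSP90 proteins are ATP-driven chaperones that hold kinases, steroid receptors and other client proteins in a folded, activatable state. Mammals make a pair of cytosolic forms, the heat-inducible Hsp90aa1 and the largely constitutive Hsp90ab1. Small heat shock proteins such as Hspb1 and Cryab bind unfolding proteins without using ATP and keep them from aggregating. Hspd1 forms the chaperonin chamber that folds proteins inside mitochondria. After heat, heat shock factor 1 binds repeats of the unit GAA and its complement in the promoters of many of these genes and raises their transcription.

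Libraries held 13693811 to 18738652 counts in burn and 17824830 to 26837925 in control. Burn replicate 3 stood apart from the other burn libraries. A single set of 25 genes, the most abundant when averaged across all 8 libraries, made up 15.1% of counts in burn replicate 3. The same genes made up 41.6% to 44.8% in burn replicates 1, 2 and 4 and 23.4% to 27.3% in controls. These values do not describe the most abundant genes of each library by itself. Burn replicate 3 had 15354 detected genes, against at least 17322 in each other library. Its TMM scaling factor was 1.20, compared with 0.807 to 0.894 for burn replicates 1, 2 and 4 and 1.05 to 1.14 for controls. Fold changes, the HSP90 ratio and the HSP90 sum below are therefore also given without burn replicate 3. The marker genes of skin cell types could not be looked up by identifier, and the tissue label was not checked against them.

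None of the 5 genes passed the test of burn against control over all 8 libraries. Estimates were higher in burn for 3 genes (Hsp90aa1, Hspb1 and Cryab) and lower for 2 (Hsp90ab1 and Hspd1), and in edgeR's quasi-likelihood test 0 of the 5 had an adjusted p under 0.05, against 21.9% of the 14240 genes tested. At an unadjusted p under 0.05 the count was 1 of 5, Hsp90aa1, against 37.8% of all genes. DESeq2 and limma-voom each called 0 of the 5, against 32.2% and 22.2% of all genes, and limma-voom with sample quality weights called 1, Hsp90aa1, against 30.6%. For 0 of the 5 did the 4 burn values lie wholly on one side of the 4 control values, which was the case for 31.0% of all genes. The median absolute log2 fold change was 0.52 over the 5 genes and 0.53 over all genes tested. The lowest count behind any value here was 214, with an exact 95% Poisson interval of 186 to 245. Intervals of this kind cover counting error only.

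**Figure D1:**
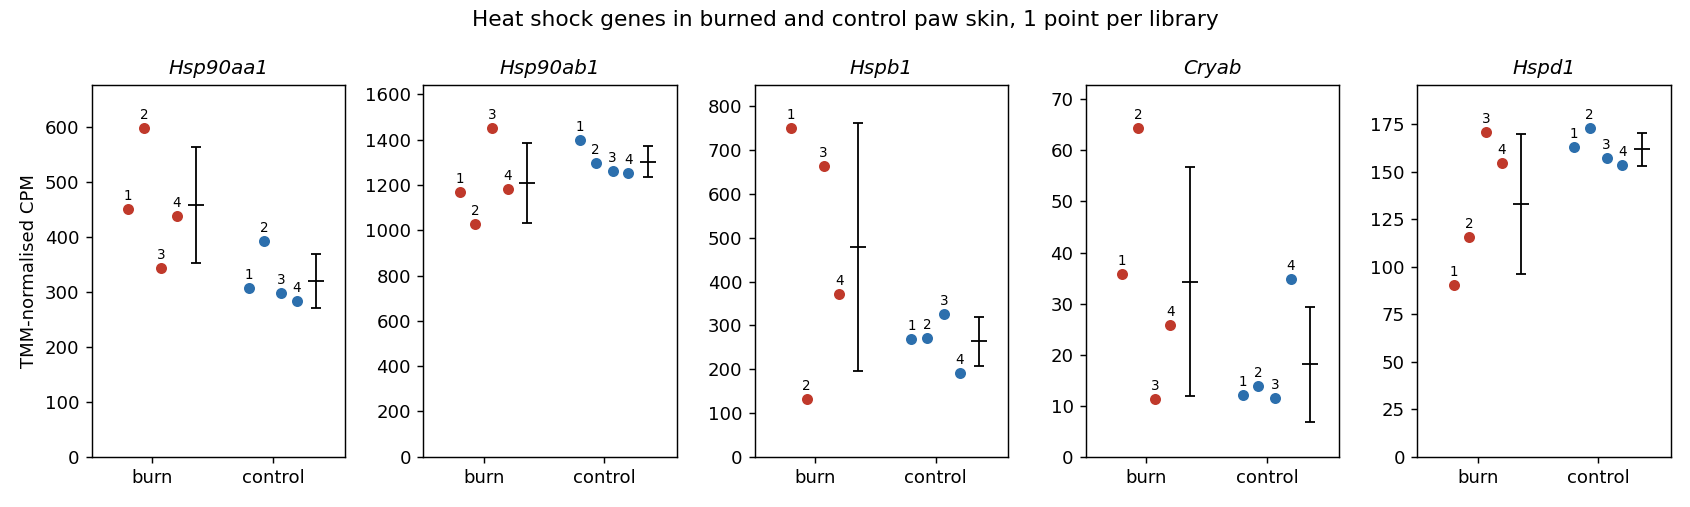
TMM-normalised CPM (counts scaled to a common library total) of the 5 genes on separate linear axes, 1 numbered point per library (burn in red, control in blue), with the mean and SD of each group (n = 4) as a bar at the right of its points. For every gene the burn points overlap or bracket the control points, and Hspb1 in burn runs between 131 and 751 CPM.

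Hsp90aa1 (ENSRNOG00000007219), the heat-inducible cytosolic HSP90, had normalised levels of 451, 599, 344 and 438 CPM in burn replicates 1 to 4, against 308, 393, 298 and 283 CPM in control replicates 1 to 4. Burn replicates 1, 2 and 4 lay above every control library, and burn replicate 3 lay inside the control range, below control replicate 2. The mean was 458 ± 105 CPM in burn and 320.3 ± 49.4 CPM in control (SD, n = 4 each). The estimated log2 fold change was 0.52 (SE 0.21, 95% interval 0.04 to 0.99, edgeR adjusted p = 0.110), a 1.43-fold difference that did not pass the threshold. Its size was ordinary among the genes tested, at percentile 48.6 of the absolute log2 fold changes. Without burn replicate 3 the log2 fold change was 0.63 and passed (edgeR adjusted p = 0.0332), in a fit that called 29.3% of all genes. Without burn replicate 2, the library with the most Hsp90aa1, it was 0.36 and did not (edgeR adjusted p = 0.185). The place of single libraries depended on the scaling. With library size alone, only burn replicate 2 lay above every control, and the other 3 burn libraries lay within the control range.

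Hsp90ab1 (ENSRNOG00000019834), the largely constitutive cytosolic form, had 1170.1, 1028, 1453 and 1182 CPM in burn replicates 1 to 4, against 1401, 1299, 1260.5 and 1253 CPM in control replicates 1 to 4. Burn replicates 1, 2 and 4 lay below every control and burn replicate 3 above every control, also with median-ratio factors and with library size alone. Of all genes tested, 2.02% had exactly this placing, which was picked out after its values were seen, so its share is a description only. The mean was 1208 ± 177 CPM in burn and 1303 ± 67.8 CPM in control (SD, n = 4 each). The log2 fold change was -0.11 (SE 0.19, edgeR adjusted p = 0.708), and -0.21 without burn replicate 3 (edgeR adjusted p = 0.274). Its 95% interval ran from -0.54 to 0.32, or 0.689- to 1.25-fold, the narrowest of the 5 genes on the log2 scale.

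Setting the inducible against the constitutive gene inside each library removes the scaling factor. The ratio of Hsp90aa1 to Hsp90ab1 counts was 0.385, 0.583, 0.237 and 0.371 in burn replicates 1 to 4, against 0.220, 0.302, 0.236 and 0.226 in control replicates 1 to 4. These are ratios of counts and not per length of transcript, so they are read across libraries and not as the relative amount of the 2 transcripts. Burn replicates 1, 2 and 4 lay above all 4 controls, and burn replicate 3 lay among the controls. The mean log2 ratio was -1.42 ± 0.53 in burn and -2.04 ± 0.21 in control (SD, n = 4 each), a difference of 0.62 (SE 0.29) or 1.54-fold. A two-sided exact permutation test over the 70 divisions of the libraries gave p = 0.0571, where the smallest possible p is 0.0286. Without burn replicate 3 the difference was 0.84 and the exact permutation p was 0.0286. Leaving out that library removed the only overlap of the groups, so this p was the smallest possible there and adds no support. Without burn replicate 2 the difference was 0.41 with an exact permutation p of 0.171. The paws of 1 rat may be in both groups, and the test takes the libraries as exchangeable.

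Expressed as a share, Hsp90aa1 made up 27.8%, 36.8%, 19.1% and 27.1% of the counts of both genes in burn replicates 1 to 4, against 18.0%, 23.2%, 19.1% and 18.4% in control replicates 1 to 4. The 95% Wilson interval of the highest share, burn replicate 2, was 36.2% to 37.4%, and that of burn replicate 3 was 18.7% to 19.6%, for counting error alone. The summed level of both genes was 1621, 1627, 1797 and 1620.4 CPM in burn replicates 1 to 4, against 1708, 1692, 1559 and 1536 CPM in control replicates 1 to 4. Its mean was 1666 ± 87.1 CPM in burn and 1624 ± 89.0 CPM in control (SD, n = 4 each), a difference of 42.6 CPM (SE 62.3), inside the spread of either group. Without burn replicate 3, an alternative chosen after seeing the data, the burn mean was 1623 ± 3.97 CPM (SD, n = 3) and the difference was -0.88 CPM, so the difference rested on that library. These sums use TMM factors and depend on them. With library size alone, Hsp90ab1 was 984, 828 and 1056 CPM in burn replicates 1, 2 and 4, against 1310 to 1494 CPM in controls. Hsp90aa1 was 379, 483 and 391 CPM in those burn libraries, against 295 to 423 CPM in controls. The sum then lay below every control in burn replicates 1, 2 and 4 and above every control in burn replicate 3.

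**Figure D2:**
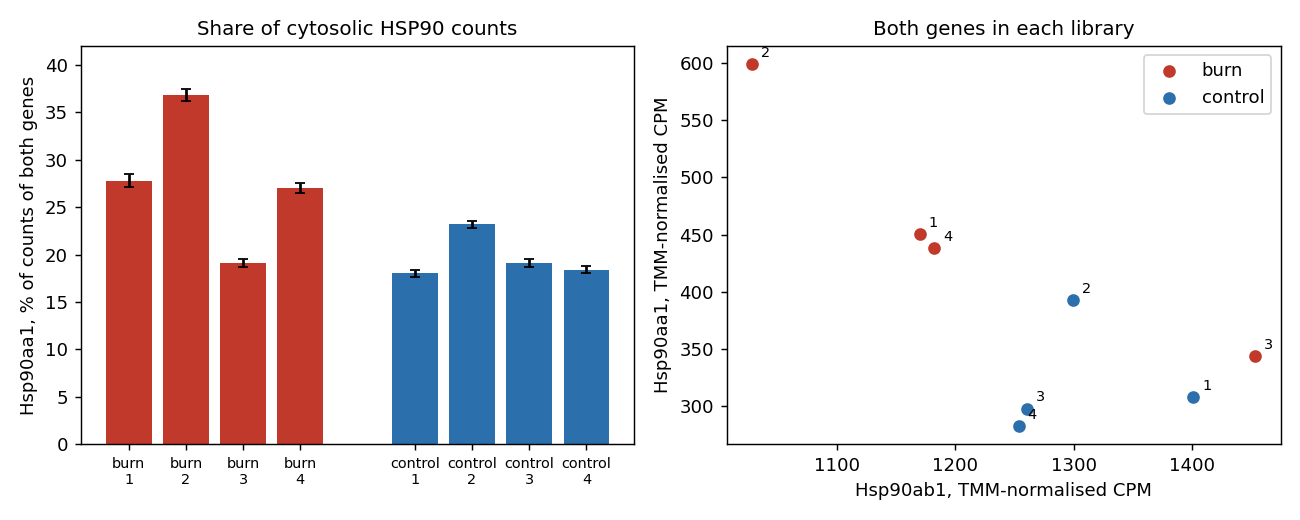
Left, the share of Hsp90aa1 in the counts of Hsp90aa1 and Hsp90ab1 together, in percent, 1 bar per library, with 95% Wilson intervals for counting error. Right, the normalised level of Hsp90aa1 against that of Hsp90ab1 in CPM, 1 numbered point per library (burn in red, control in blue), on axes that do not start at 0; burn replicate 2 is at the upper left, with 599 CPM of Hsp90aa1 and 1028 CPM of Hsp90ab1, and burn replicate 3 is at the right, with 344 and 1453 CPM.

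Hspb1 (ENSRNOG00000023546), the small heat shock protein known as Hsp25 or Hsp27, also regulates actin filaments. Its RefSeq promoter is shown because this gene had the largest SD of log2 CPM between burn libraries of the 5. Heat shock factor sites hold the units GAA and TTC in alternation, and the motifs searched were GAANNTTC and TTCNNGAA, each of which reads the same on both strands. In the 250 bases before the RefSeq start site on the minus strand (GRCr8, chr12:26432302-26432551) there were 2 matches of GAANNTTC, in capitals here, from -129 to -122 and from -109 to -102.
Hspb1: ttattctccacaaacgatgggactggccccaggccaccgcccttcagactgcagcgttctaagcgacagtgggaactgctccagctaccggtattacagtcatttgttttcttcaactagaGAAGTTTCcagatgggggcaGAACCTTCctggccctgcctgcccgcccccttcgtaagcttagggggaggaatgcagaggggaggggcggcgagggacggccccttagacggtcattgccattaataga
At least 1 match of either motif was present in 13.5% of the 33469 RefSeq promoters of this length, and 2 or more in 1.75%. A match is a string of letters and not a shown binding site.

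The level of Hspb1 was 751, 131, 665 and 371 CPM in burn replicates 1 to 4, against 269, 270.4, 327 and 190.0 CPM in control replicates 1 to 4. Burn replicates 1, 3 and 4 were above every control and burn replicate 2 was below every control, a placing picked out in the same way that 1.41% of all genes tested had. With library size alone, burn replicate 4 lay within the control range. The burn libraries spanned 5.73-fold from lowest to highest and the controls 1.72-fold. The mean was 479 ± 284 CPM in burn and 264 ± 56.1 CPM in control (SD, n = 4 each). The log2 fold change was 0.86 (SE 0.47, edgeR adjusted p = 0.211), with a 95% interval of 0.871- to 3.79-fold. Without burn replicate 2 it was 1.17 and passed the threshold (edgeR adjusted p = 0.0206), in a fit that called 25.3% of all genes. Without burn replicate 1 it was 0.56 (edgeR adjusted p = 0.447) and without burn replicate 3 it was 0.66 (edgeR adjusted p = 0.344), so whether Hspb1 was called higher rested on burn replicate 2.

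Cryab (ENSRNOG00000010524), alpha-B crystallin, is a small heat shock protein best known from the eye lens and from striated muscle, where it protects the contractile filaments. It had 35.7, 64.5, 11.2 and 25.9 CPM in burn replicates 1 to 4, against 12.1, 13.9, 11.5 and 34.8 CPM in control replicates 1 to 4. Burn replicates 1 and 2 lay above every control, burn replicate 1 by a small margin over control replicate 4, and burn replicate 3 had the least of all 8 libraries. The mean was 34.3 ± 22.5 CPM in burn and 18.1 ± 11.2 CPM in control (SD, n = 4 each). The log2 fold change was 0.92 (SE 0.55, edgeR adjusted p = 0.248), with a 95% interval of 0.805- to 4.47-fold, the widest of the 5 genes. Without control replicate 4 it was 1.45 (edgeR adjusted p = 0.108) and without burn replicate 2 it was 0.42 (edgeR adjusted p = 0.550). Without burn replicate 3 it was 1.21 (edgeR adjusted p = 0.0872), and none of these passed the threshold. With library size alone, only burn replicate 2 lay above every control and no burn library below. In control replicate 4, 25 genes lay more than 16-fold above the highest of the other 3 controls, where each of those 3 had 0 such genes. The part that the source of those 25 genes has in the level of Cryab was not tested.

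The ratio of both small heat shock genes differed widely between libraries. There were 21.0, 2.03, 59.2 and 14.3 Hspb1 counts for each Cryab count in burn replicates 1 to 4, against 22.2, 19.5, 28.5 and 5.46 in control replicates 1 to 4. Burn replicate 2 was the lowest of all 8 libraries and burn replicate 3 the highest. The 2 remaining burn libraries lay within the control range. These ratios need no scaling factor and were not tested.

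Hspd1 (ENSRNOG00000014525) encodes mitochondrial Hsp60, which works with the co-chaperonin Hspe1. Its promoter is shown because it holds more matches than that of Hspb1. In the 250 bases before its RefSeq start site there were 3 overlapping matches, 2 of TTCNNGAA and 1 of GAANNTTC, between -242 and -225. These bases lie within annotated genes, so only the stretch around the matches is given (GRCr8, minus strand, chr9:64084256-64084285), with the run of 3 matches in capitals.
Hspd1: ggggccTTCCGGAAGGTTCTAGAAccgagc
The same window of Hsp90ab1 held 0 matches, which says only that these letters are not in these bases. Promoters were found for 3 of the 5 genes in the RefSeq table. Hsp90aa1 and Cryab were not matched.

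The level of Hspd1 was 90.5, 116, 171 and 155 CPM in burn replicates 1 to 4, against 163, 173, 157 and 154 CPM in control replicates 1 to 4. Burn replicates 1 and 2 were below every control, and burn replicates 3 and 4 lay within the control range. With median-ratio factors or library size alone, burn replicate 4 was below every control too, and with library size alone burn replicate 3 was above every control. The mean was 133 ± 36.6 CPM in burn and 162 ± 8.49 CPM in control (SD, n = 4 each). The log2 fold change was -0.28 (SE 0.21, edgeR adjusted p = 0.360), with a 95% interval of 0.591- to 1.14-fold. Leaving out each library in turn gave -0.43 (without burn replicate 3, edgeR adjusted p = 0.119) to -0.14 (without burn replicate 1), and no refit passed the threshold.

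**Figure D3:**
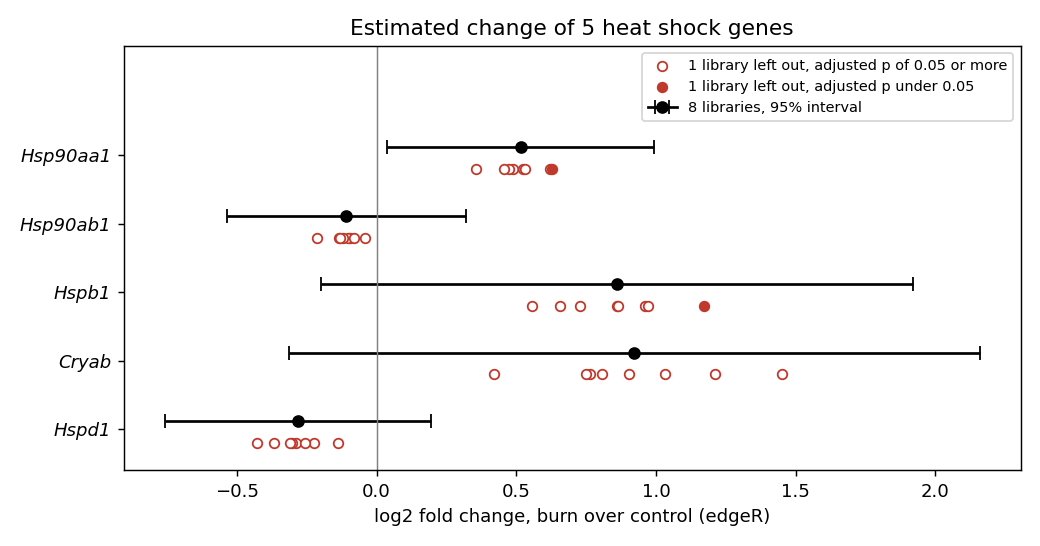
Fitted log2 fold changes of the 5 genes, burn over control, from edgeR's quasi-likelihood fit, with all 8 libraries (black point with its 95% interval) and with each of the 8 libraries left out in turn (red circles, filled where the adjusted p was under 0.05). Filled circles occur for Hsp90aa1 at 0.63 and for Hspb1 at 1.17, and the interval of Cryab is the widest.

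The 5 genes did not order the burn libraries alike. From highest to lowest TMM-normalised level, Hsp90aa1 and Cryab both ran burn replicate 2, 1, 4 and 3. Hsp90ab1 ran 3, 4, 1 and 2, the reverse, and Hspd1 ran 3, 4, 2 and 1. Hspb1 ran 1, 3, 4 and 2. Burn replicate 3, the library that stood apart in its composition, was thus lowest among burn libraries for the inducible Hsp90aa1 and for Cryab. It was highest for Hsp90ab1 and Hspd1 and second for Hspb1, by TMM-normalised level. With library size alone, Hsp90aa1 ran 2, 3, 4 and 1 (483, 412, 391 and 379 CPM). Hspb1 then ran 3, 1, 4 and 2 (796, 632, 331 and 106 CPM), and Hsp90ab1, Cryab and Hspd1 kept their orders. Burn replicate 3 was then second for Hsp90aa1 and highest for Hspb1. The TMM factors in burn were 0.807, 0.843, 0.894 and 1.20 for replicates 2, 1, 4 and 3. The orders of Hsp90aa1 and Hspb1 thus changed when these factors were left out, and those of the other genes did not. The Hsp90aa1 to Hsp90ab1 count ratio uses no such factor. From highest to lowest it ran replicates 2, 1, 4 and 3, the order of Hsp90aa1 with TMM factors. That is also the reverse of the Hsp90ab1 order, which held with and without TMM factors. The ratio thus does not show which of the genes set its order. With 4 burn libraries no correlation was computed.

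Relative to the control mean, burn replicate 2 had 0.91 log2 units more Hsp90aa1 and 1.99 more Cryab, and lay at -0.98 for Hspb1, -0.34 for Hsp90ab1 and -0.48 for Hspd1. Burn replicate 3 lay at 0.11 for Hsp90aa1, -0.52 for Cryab, 1.36 for Hspb1, 0.16 for Hsp90ab1 and 0.08 for Hspd1. Burn replicate 1 combined the highest Hspb1, at 1.54, with the lowest Hspd1, at -0.84. The highest Hspb1 was in burn replicate 3 when library size alone was used. Burn replicate 4 deviated least from the control mean among the burn libraries for Hspb1, at 0.52, and for Hspd1, at -0.06. The same held by a small margin for Hsp90ab1, at -0.14.

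**Figure D4:**
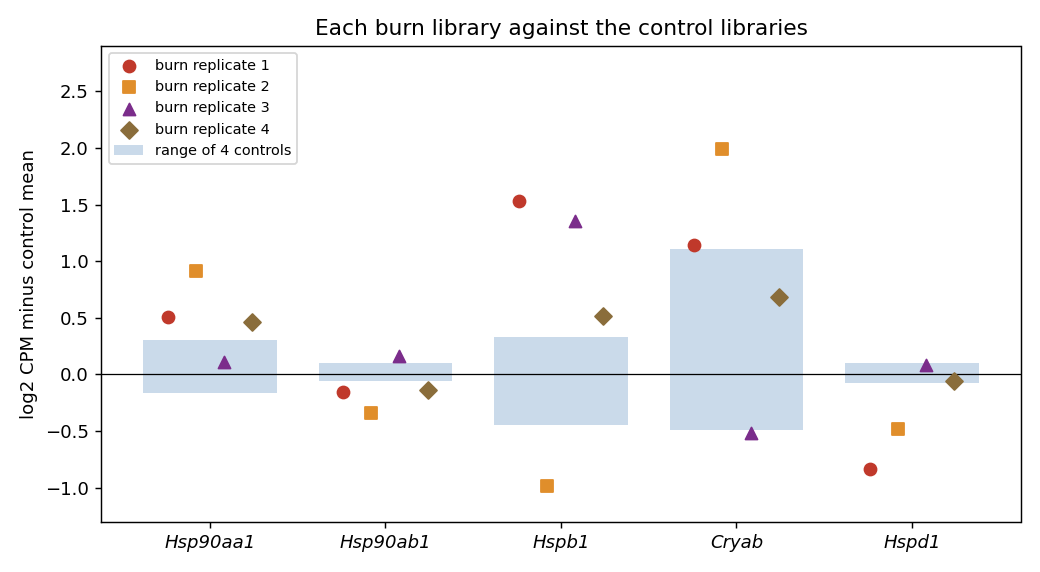
Log2 CPM of each burn library minus the mean of the 4 control libraries, 1 symbol per burn replicate, with the range of the 4 controls as a blue band, for each of the 5 genes. Burn replicate 2 is the highest symbol for Hsp90aa1 and Cryab and the lowest for Hspb1 and Hsp90ab1, and the bands of Hsp90ab1 and Hspd1 are the narrowest.

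With TMM factors, all 5 genes had a larger SD of log2 CPM among burn libraries than among controls. So did 84.0% of all genes tested, and the direction is that of most genes. The SD of log2 CPM was 0.42 in burn and 0.07 in control for Hspd1, a ratio of 5.56. For Hspb1 it was 1.15 in burn and 0.33 in control, a ratio of 3.53, and for Hsp90ab1 0.21 in burn and 0.07 in control, a ratio of 2.80. The ratio was 1.56 for Hsp90aa1 and 1.40 for Cryab, the gene whose controls were themselves the most spread of the 5, with an SD of 0.75. Over all genes tested the median SD was 0.52 in burn and 0.25 in control. With library size alone the larger spread in burn did not hold for Hsp90aa1. It then ran from 379 to 483 CPM in burn and from 295 to 423 CPM in control. RefSeq lists 16 pseudogenes named after Hsp90aa1, 23 after Hsp90ab1 and 20 after Hspd1, and 0 after Hspb1 or Cryab. How reads from such near copies were assigned is not stated in those sources, so the levels of those 3 genes are uncertain to that extent.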

How the data were processed

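Poly(A) RNA of rat paw skin was sequenced in 4 burn and 4 control libraries, grouped by their treatment label. The labels carry no animal numbers and do not say whether same-group libraries are separate rats, so a p-value speaks only of sample-to-sample spread, which may be technical. The deposited values are raw whole-number read counts per Ensembl gene. The submitters' processing notes name TopHat2 2.0.9, HTSeq 0.5.4p3, edgeR, R 3.0.1, limma and the build Rnor_5.0; what each did, the annotation and the strand setting are not stated there.

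The count table pairs no identifier with a symbol, and 0 of the 47357 genes in the RefSeq table carry an Ensembl identifier. The symbols of the 5 genes came with the list that defined them. The 5 preset lists of other chaperones, the 10 marker lists and the genes most alike in pattern could not be matched to rows and were not used. RefSeq promoters (GRCr8) were matched by symbol. Members and lists were chosen with earlier results of these data known.

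Counts were tested with edgeR 4.0.16 in R 4.3.3 (quasi-likelihood, robust dispersions, TMM factors, the default expression filter, group as the only term), over the 14240 genes that passed, the 5 genes among them. P-values were two-sided and Benjamini-Hochberg adjusted over all genes tested, with a threshold of 0.05. A standard error is the log2 fold change divided by the root of its F statistic, and 95% intervals use the t distribution with the degrees of freedom of the fit. CPM uses TMM factors, and log2 CPM a prior count of 2. Count ratios of Hsp90aa1 to Hsp90ab1 had 0.5 counts added to both. The procedure was tested on simulated data with 200 changed genes. The simulation gave both groups the same dispersion and no shift in composition. It therefore does not show how the procedure fares with the larger spread in burn or the unlike TMM factors of these libraries. Alternatives were median-ratio factors, library size alone, no filter, 1 CPM in 4 libraries, DESeq2 1.42.0, limma 3.58.1 voom with and without sample quality weights, and leaving out each library. Libraries of a group were compared for repeats, and chi-square per degree of freedom between their counts was 28.3 or more in every pair.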

Additional observations from a re-analysis of the deposited data

Results flagged for a closer look

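Cryab in control replicate 4 was far from the other controls on the CPM scale, at 34.8 CPM, with the next highest control at 13.9 CPM. The gap was 0.896 of the range of the 4 controls, past the 95% limit of Dixon's test, while on the log2 scale it was 0.828 and just short of it. This was the 1 value picked in 22 such screens of the 5 genes and the HSP90 ratio, which share values across the scales, and chance picks about 1 in 20.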

How the results depend on the processing

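Over 15 alternative settings the 5 genes gave 75 log2 fold changes. None reversed in sign, 72 stayed on the same side of the threshold, and 3 passed it. Hsp90aa1 passed with limma-voom and sample quality weights, at 0.54 (adjusted p = 0.0263), and without burn replicate 3. Hspb1 passed without burn replicate 2. Leaving out each library in turn gave log2 fold changes of 0.36 to 0.63 for Hsp90aa1, 0.56 to 1.17 for Hspb1, 0.42 to 1.45 for Cryab, -0.21 to -0.04 for Hsp90ab1 and -0.43 to -0.14 for Hspd1. The difference in the log2 ratio of Hsp90aa1 to Hsp90ab1 was 0.41 to 0.84, and its exact permutation p was 0.0571 with 5 counts added or with medians. Library size alone put the all-gene median log2 fold change at -0.15, against 0.06 with TMM, and the 5 genes at 0.27 for Hsp90aa1, -0.29 for Hsp90ab1, 0.70 for Hspb1, 0.61 for Cryab and -0.45 for Hspd1. Of all genes, 1689 were called higher and 1426 lower. Lower calls were the more numerous with library size alone (894 higher, 2138 lower), limma-voom (1513 and 1645) and no filter (1374 and 1379). DESeq2 gave 2379 higher and 2203 lower. The cause of these changes was not tested. Leaving out each library gave 673 to 2314 higher and 546 to 1929 lower, with fewer samples in each fit. No paired analysis was possible because the labels carry no replicate or animal numbers, and the replicate numbers used here only name libraries in accession order. The alternatives for the 5 lists of other chaperones were not run.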
